A study of Homo sapiens with 21 samples.

Results

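The genes described here are the G1 inhibitors of cyclin-dependent kinases (CDK), the D-type cyclins and the kinases that these cyclins activate. The 10 members were taken by gene symbol from the 58174 gene identifiers listed for each library: CDKN1A, CDKN1B and CDKN1C of the CIP/KIP family of inhibitors, CDKN2C and CDKN2D of the INK4 family, the cyclins CCND1, CCND2 and CCND3, and the kinases CDK4 and CDK6. No measured value entered their choice by name, although the group was drawn up with earlier results of these data known. All 10 symbols were found, and 9 passed the filter on low counts, CDKN1C being the exception.

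D-type cyclins are made in response to growth factor signals and bind CDK4 or CDK6. The active pair phosphorylates the retinoblastoma protein, which frees E2F factors to transcribe the genes of DNA replication. INK4 proteins bind the kinases and keep the cyclins off, whereas CIP/KIP proteins bind cyclin and kinase together and also inhibit CDK2. In myeloid cells these inhibitors are known for their part in leaving the cell cycle during maturation.

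OCI-AML5, a line of human acute myeloid leukemia cells, was used throughout, and UM171 is a small molecule used to expand hematopoietic stem cells ex vivo. Poly(A) RNA was sequenced from 21 libraries in 7 groups of 3. Control cells were kept in DMSO, the vehicle (labelled 72 h), or exposed to UM171 (500 nM by the labels) during 6, 24, 48 or 72 h. Cells carrying a guide RNA against EPCR (sgEPCR), the surface receptor encoded by PROCR, were kept in DMSO or exposed to UM171, both for 24 h. The paper gives a lower dose, lists the DMSO libraries as the start of the time course, and names an AAVS1 guide (sgAAVS1) for control cells in the EPCR experiment, whereas the labels name no guide for the control libraries. The sgEPCR cells are called a clone in the labels and independent clones in the paper, and the clone of each library is not given. The labels describe these cells both as EPCR null and, for genotype, as an EPCR knockdown. DMSO and UM171 24 h control libraries served in both the time course and the EPCR comparison, so these comparisons share samples, and the control and sgEPCR DMSO libraries also differed in labelled time (72 against 24 h), which cannot be told apart from the genotype. Nothing in the labels ties replicates to separate cultures, so p-values measure only the spread between these libraries, which may be technical.

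Libraries held 24.3 M to 51.5 M counts (median 33.9 M). Mitochondrially encoded genes took 7.73 to 13.5% of counts in 19 libraries, against 35.9% for replicate 1 of sgEPCR DMSO and 32.2% for replicate 2 of sgEPCR UM171. These 2 libraries stood apart from their own groups, and the members' sgEPCR values are given with and without them. Without them each sgEPCR group holds 2 libraries, and the small p-values of those fits measure only the spread of these few libraries. Levels are in TPM, transcripts per M, which is scaled for transcript length. PROCR had 3.68 ± 0.534 TPM (SD, n = 3 here and below) in DMSO and 48.5 ± 0.0115 TPM at 24 h of UM171 in control cells, and 3.59 ± 1.15 and 7.19 ± 2.58 TPM in the same treatments of sgEPCR cells. The sgEPCR response of PROCR was smaller than the control response (log2 difference -3.06, standard error, SE, 0.17, adjusted p = 5.8e-07, or -2.92 without the 2 libraries), and its transcript was still detected in sgEPCR cells. All 10 myeloid markers had a median of at least 1 TPM (786.82 to 2853.03 TPM summed per library). The B lymphocyte list reached that level for 1 of 4 markers, the T lymphocyte list for 2 of 4 and the erythroid and the stromal and epithelial lists for 0 of 4 and 0 of 5.

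In DMSO the most abundant member by TPM was CDKN1A, a target of p53 that inhibits CDK2, at 218 ± 20.5 TPM. CDK4 followed at 131 ± 6.89 TPM and CCND3 at 109 ± 4.93 TPM. CCND2 had 66.8 ± 5.89 TPM, CDKN2C 29.9 ± 2.92 TPM and CDK6 28.9 ± 3.40 TPM, and the ranges of the last pair overlapped. CDKN1B stood at 18 ± 1.82 TPM and CDKN2D at 13.8 ± 2.28 TPM, with values from 16.0 to 19.6 and from 11.4 to 16.0. CCND1 was low, at 0.623 ± 0.166 TPM with 31 to 47 counts per library. CDKN1C, with 1 to 4 counts, was close to the limit of detection. D-cyclin transcripts in DMSO were thus nearly all CCND3 and CCND2.

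**Figure D1:**
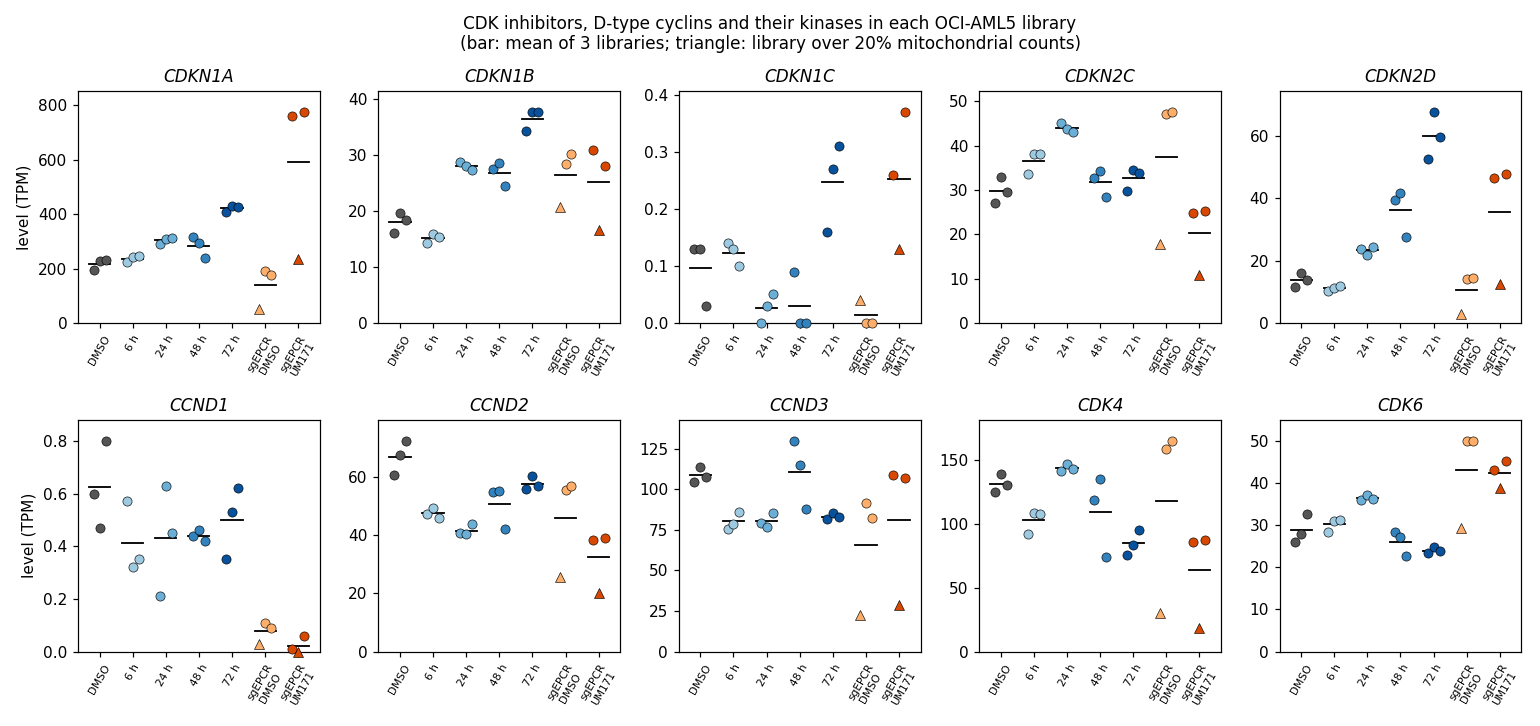
Level of each member in TPM (y axis, from 0, scaled per gene) in each of the 21 libraries by group (x axis: DMSO, the 4 UM171 times, then sgEPCR cells with DMSO or with UM171); points are libraries, bars the means of 3, and triangles the 2 libraries over 20% mitochondrial counts. CDKN2D climbed from 13.8 TPM in DMSO to 59.9 TPM at 72 h, and the triangles lie lowest of their group for every gene but CDKN1C.

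UM171 exposure was followed by higher levels of 3 inhibitors, CDKN2D, CDKN1B and CDKN1A, in control cells at 24, 48 and 72 h, while CDK4 and CDK6 were lower at 72 h. At 72 h, 7 of the 9 tested members were called at an adjusted p under 0.05, 3 higher and 4 lower. Of all 16575 tested genes, 75.6% were called in that comparison, 38.8% higher and 36.8% lower, so a share of this size is not particular to the members. The stricter limits of the study (adjusted p under 0.0001, more than 2-fold) were passed by 1 member, CDKN2D, beside 20.8% of all tested genes. The median log2 fold change was -0.25 over the members and 0.02 over all tested genes.

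CDKN2D encodes p19INK4D, which inhibits CDK4 and CDK6. Its DMSO libraries had 11.4, 16.0 and 13.9 TPM and its 6 h libraries 10.1, 11.3 and 11.7 TPM. At 24 h it had 23.7, 21.9 and 24.5 TPM, at 48 h 39.3, 41.6 and 27.5 TPM, and at 72 h 52.6, 67.6 and 59.6 TPM. The 24, 48 and 72 h libraries were all above the DMSO libraries and did not overlap with each other, while 6 h overlapped with DMSO. On normalised counts CDKN2D was lower at 6 h (log2 fold change -0.55, SE 0.12, adjusted p = 5.6e-04) and higher at 24 h (0.65, SE 0.11, adjusted p = 3.3e-05). The change reached 1.34 at 48 h (SE 0.10, adjusted p = 3.1e-09) and 1.97 at 72 h (SE 0.10, adjusted p = 1.0e-11). Between 24 and 72 h it rose by a further 1.32 (SE 0.10, adjusted p = 1.8e-09). The 6 h call was lost with limma on log2(TPM + 1), where the change was -0.28 (adjusted p = 0.13).

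CDKN1B encodes p27KIP1, which inhibits CDK2 with cyclin E or A. It had 16.0, 19.6 and 18.4 TPM in DMSO and 14.2, 16.0 and 15.4 TPM at 6 h. At 24 h it had 28.7, 28.1 and 27.3 TPM, at 48 h 27.4, 28.6 and 24.6 TPM, and at 72 h 34.3, 37.7 and 37.7 TPM. All libraries from 24 h on lay above all DMSO libraries, and 72 h above 24 and 48 h. The transcript was lower at 6 h (log2 fold change -0.42, SE 0.05, adjusted p = 1.7e-06), then higher at 24 h by 0.61 (SE 0.05, adjusted p = 4.6e-09) and at 72 h by 0.90 (SE 0.05, adjusted p = 1.6e-11). The value at 48 h was 0.59, close to that at 24 h.

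CDKN1A encodes p21CIP1. In DMSO it had 194, 227 and 233 TPM, at 6 h 223, 241 and 246 TPM and at 24 h 289, 308 and 311 TPM. At 48 h its libraries were spread from 237 to 314 TPM, and at 72 h they had 409, 429 and 425 TPM. The 24 h and 72 h libraries were above all DMSO libraries and apart from each other. On the log2 scale the change was 0.44 at 24 h (SE 0.05, adjusted p = 1.2e-06), 0.40 at 48 h (SE 0.05, adjusted p = 3.4e-06) and 0.89 at 72 h (SE 0.05, adjusted p = 1.1e-10). At 6 h the value was -0.05 (adjusted p = 0.46), and its sign depended on the scaling. The 48 h call was lost with all 21 libraries in 1 fit (0.40, adjusted p = 0.066).

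CDKN2C encodes p18INK4C and is the other INK4 gene among the members. It had 27.1, 32.9 and 29.6 TPM in DMSO and 45.1, 43.8 and 43.1 TPM at 24 h, and between 28.3 and 34.5 TPM at 48 and 72 h. The 24 h libraries were thus the highest of the time course. The transcript was higher at 24 h (log2 fold change 0.49, SE 0.05, adjusted p = 5.2e-08) and then fell from 24 to 72 h (-0.50, adjusted p = 4.2e-08). It was not called at 48 h (0.06, adjusted p = 0.27) or 72 h (-0.01, adjusted p = 0.89). Its value at 6 h, 0.11 (adjusted p = 0.046), was not called with DESeq2 (0.10, adjusted p = 0.10) or without any of 5 of the 6 libraries compared.

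The INK4 pair among the members moved apart, so that the mix of CDKN2C and CDKN2D transcripts turned over. In shares and ratios INK4 stands for this pair only, here and below. CDKN2D made up 29.7 to 32.7% of the summed CDKN2C and CDKN2D TPM in DMSO and 23.0 to 23.6% at 6 h. It took 49.2 to 54.9% at 48 h and 63.7 to 66.2% at 72 h. The summed INK4 TPM per summed TPM of CDK4 and CDK6 went from 0.255 to 0.293 in DMSO to 0.784 to 0.945 at 72 h, and the summed CIP/KIP TPM per kinase TPM from 1.39 to 1.54 to 3.88 to 4.48. These ranges did not overlap and are given as a description, since they restate the levels above.

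**Figure D2:**
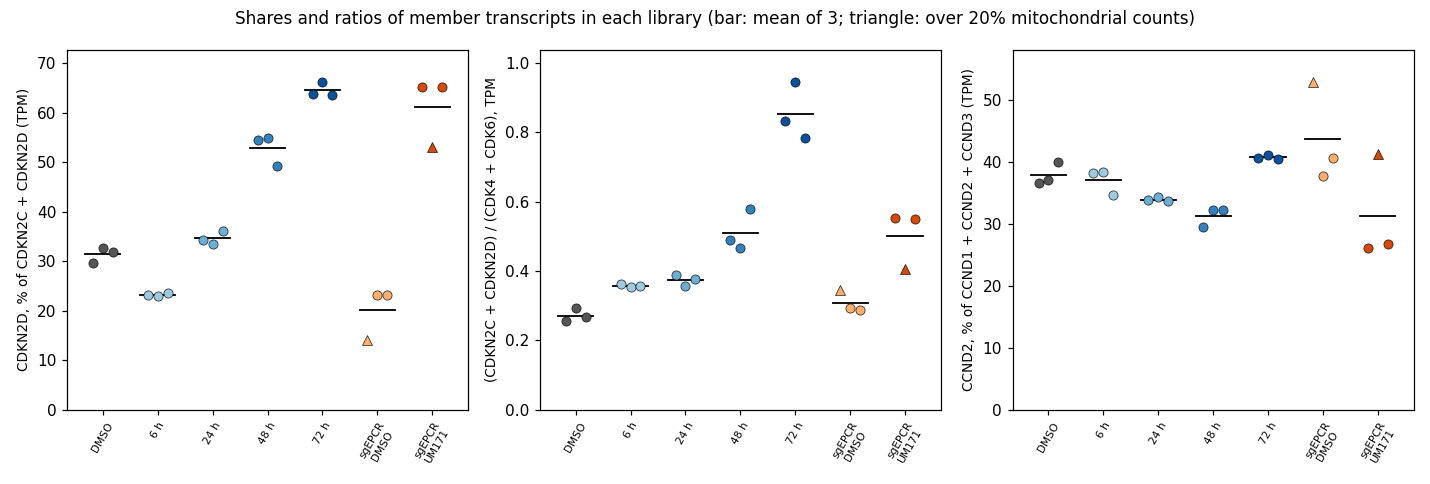
Share of CDKN2D in the summed CDKN2C and CDKN2D transcripts (left, % of TPM), CDKN2C and CDKN2D transcripts per kinase transcript (middle, ratio of TPM) and share of CCND2 in the D-cyclin transcripts (right, % of TPM) in each library by group (x axis). Bars are means of 3 libraries and triangles the 2 libraries over 20% mitochondrial counts. The CDKN2D share stood between 63.7 and 66.2% at 72 h and between 53.2 and 65.3% in sgEPCR cells exposed to UM171, against at most 36.2% in DMSO, at 6 h and at 24 h.

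CDKN1C, which encodes p57KIP2, had 0 to 14 counts in each library and was not tested. Its counts were 4, 4 and 1 in DMSO, 0, 1 and 1 at 24 h, and 4, 7 and 10 at 72 h. In sgEPCR cells they were 1, 0 and 0 in DMSO and 8, 4 and 14 in UM171. With 3 counts per library taken as the smallest signal, the libraries with 4 or more counts lay in the DMSO, 6 h, 48 h, 72 h and sgEPCR UM171 groups. No fold is given, since most groups were at or near that floor, which covers counting error only. When the filter on low counts was left out, edgeR called CDKN1C higher in 4 comparisons. These were 72 against 24 h (adjusted p = 0.0018), sgEPCR UM171 against sgEPCR DMSO (0.0070), sgEPCR against control cells in UM171 (0.0080) and the difference of responses (0.0057), each against groups of 0 or 1 count per library, so the fitted sizes are left out.

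CCND2 and CCND3 were lower early. At 6 h, 7 of the 9 tested members were called, 1 higher and 6 lower, beside 62.1% of all tested genes (31.8% higher, 30.3% lower). CCND2, the D2 cyclin, had 60.6, 67.5 and 72.3 TPM in DMSO, 47.2, 49.3 and 46.0 TPM at 6 h and 40.5, 40.4 and 43.7 TPM at 24 h. All libraries at both times were below those in DMSO. On the log2 scale the change was -0.64 at 6 h (SE 0.05, adjusted p = 2.1e-08) and -0.73 at 24 h (SE 0.05, adjusted p = 1.7e-09). CCND2 then regained part of its level, with -0.37 at 48 h and -0.25 at 72 h (adjusted p = 3.0e-04), and it rose by 0.47 from 24 to 72 h (adjusted p = 3.7e-07). At 72 h it had 55.9, 60.2 and 57.0 TPM, still below each DMSO library, and the 72 h call was lost with limma on log2(TPM + 1) (-0.21, adjusted p = 0.059).

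CCND3, the D3 cyclin, had 104, 114 and 108 TPM in DMSO and 75.8, 78.8 and 86.1 TPM at 6 h. It had 79.0, 76.7 and 85.4 TPM at 24 h and 81.4, 85.2 and 83.0 TPM at 72 h. These groups lay below DMSO without overlap, whereas 48 h, with 130, 115 and 87.8 TPM, spanned it. On the log2 scale the change was -0.57 at 6 h (SE 0.07, adjusted p = 1.5e-06), -0.42 at 24 h (adjusted p = 2.5e-05) and -0.38 at 72 h (adjusted p = 5.9e-05), and 0.12 at 48 h (adjusted p = 0.12). With all 21 libraries in 1 fit the calls at 24 h (-0.41, adjusted p = 0.11) and 72 h (-0.39, adjusted p = 0.11) were lost. UM171 48 h replicate 3, the low library at 48 h, also had 13.5% mitochondrial counts against 7.96 and 8.75% in the others of its group, and the part of this in the result was not tested.

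CCND1, the D1 cyclin, was measured at 13 to 59 counts per library in control cells. Its TPM were 0.600, 0.470 and 0.800 in DMSO and 0.210, 0.630 and 0.450 at 24 h, and overlapped. On counts it was lower at 24 h (log2 fold change -0.80, SE 0.22, adjusted p = 0.0040), a call lost with limma on log2(TPM + 1) (adjusted p = 0.17). At 48 h its count-based value was 0.28 and its TPM was lower than in DMSO, so the sign depended on the scale, and neither was called.

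The kinases CDK4 and CDK6 were lower at 72 h. CDK4 had 125, 139 and 130 TPM in DMSO, 92.2, 108 and 108 TPM at 6 h and 141, 147 and 143 TPM at 24 h. It then had 119, 135 and 74.0 TPM at 48 h and 75.5, 83.3 and 95.5 TPM at 72 h. Libraries at 6 h and 72 h were all below DMSO and those at 24 h all above. The log2 change in normalised counts was -0.57 at 6 h (SE 0.06, adjusted p = 7.5e-07) and -0.64 at 72 h (SE 0.06, adjusted p = 7.0e-08), and -0.81 between 24 and 72 h (adjusted p = 5.0e-09). The values at 24 h (0.17, adjusted p = 0.023) and 48 h (-0.15, adjusted p = 0.041) were small, and each was lost when single libraries were left out. At 48 h the value was -0.06 (adjusted p = 0.25) without UM171 48 h replicate 3. CDK4 at 6 h was not called with limma on log2(TPM + 1) (-0.35, adjusted p = 0.085).

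CDK6 had 26.1, 27.9 and 32.7 TPM in DMSO, 36.0, 37.0 and 36.3 TPM at 24 h and 23.4, 24.7 and 23.8 TPM at 72 h. The 24 h libraries were above and the 72 h libraries below all DMSO libraries. On the log2 scale the change was 0.23 at 24 h (SE 0.05, adjusted p = 2.7e-04), -0.40 at 72 h (SE 0.05, adjusted p = 3.9e-07) and -0.63 from 24 to 72 h (adjusted p = 1.9e-09). At 6 h it was -0.18 (adjusted p = 0.0022), but 0.07 (adjusted p = 0.55) with limma on log2(TPM + 1). The 24 h call was lost with all 21 libraries in 1 fit (0.23, adjusted p = 0.15).

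At 24 h all 9 tested members were called, 6 higher and 3 lower, beside 69.7% of all tested genes (34.9% higher, 34.8% lower). The 6 were the 4 tested inhibitors and both kinases, and the 3 were the cyclins. With all 21 libraries in 1 fit, CCND3, CDK4 and CDK6 were not called at 24 h. At 48 h, 6 were called, 3 higher and 3 lower (72.1% of all tested genes, 37.1% higher and 35.0% lower), and between 24 and 72 h 7 were called, 4 higher and 3 lower (69.9% of all, 36.4% higher and 33.4% lower). With libraries scaled to total counts in place of TMM, the median log2 fold change of all genes at 6 h went from 0.02 to 0.20 and the higher share of its called genes from 51.2 to 75.2%. Under that scaling the 6 h calls of members were 1 higher and 5 lower, CDK6 being the one lost, beside 44.8% higher and 14.7% lower of all tested genes. The DMSO libraries carry a single labelled time, so time in culture and time in UM171 cannot be told apart.

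**Figure D3:**
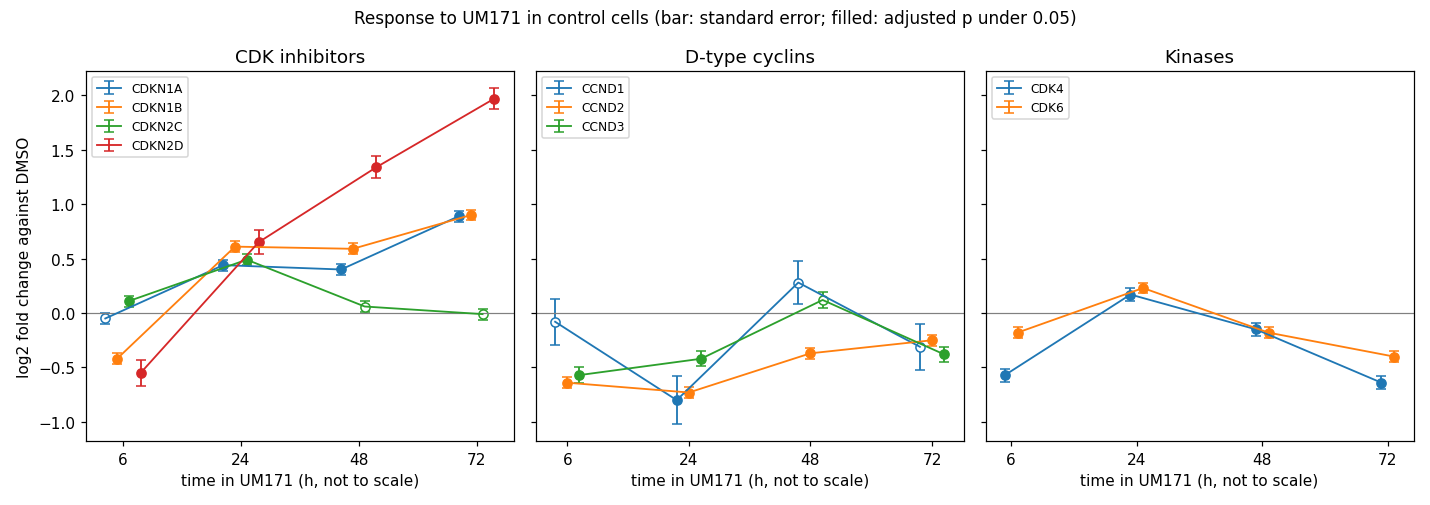
Log2 fold change of the 9 tested members against DMSO (y axis) after 6, 24, 48 and 72 h of UM171 in control cells (x axis, not to scale), for inhibitors, D-cyclins and kinases; bars are standard errors from edgeR, filled points have an adjusted p under 0.05 and open points do not. CDKN2D reached 1.97 at 72 h, CDKN1A and CDKN1B 0.89 and 0.90, while CDK4 stood at -0.64.

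Upstream sequences of the 3 inhibitors that were higher from 24 h on, and of CDK4, which was lower at 72 h, are shown so that their start regions can be read side by side. RefSeq promoter entries (GRCh38.p14) matched 7 of the 10 members, all but CDKN1C, CCND1 and CCND2. Each stretch lies within the 250 bases before the transcript start and outside exons of the GENCODE annotation, and runs 5′ to 3′ on the strand of the gene. CDKN2D covers chr19:10569060-10569229 on the minus strand, CDKN1B chr12:12717118-12717367 on the plus strand, CDKN1A chr6:36678560-36678709 on the plus strand and CDK4 chr12:57752448-57752560 on the minus strand. Capitals mark matches, on either strand, to the GC box GGGCGG, the CCAAT box and the E-box CACGTG.
CDKN2D: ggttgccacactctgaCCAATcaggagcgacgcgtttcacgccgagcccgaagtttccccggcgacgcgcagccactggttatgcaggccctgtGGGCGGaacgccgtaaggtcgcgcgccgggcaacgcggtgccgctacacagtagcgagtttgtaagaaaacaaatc
CDKN1B: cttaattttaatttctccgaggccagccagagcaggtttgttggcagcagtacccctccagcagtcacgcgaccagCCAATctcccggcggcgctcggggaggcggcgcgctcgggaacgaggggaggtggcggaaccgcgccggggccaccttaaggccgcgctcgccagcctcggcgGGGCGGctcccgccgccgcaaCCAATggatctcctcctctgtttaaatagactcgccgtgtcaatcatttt
CDKN1A: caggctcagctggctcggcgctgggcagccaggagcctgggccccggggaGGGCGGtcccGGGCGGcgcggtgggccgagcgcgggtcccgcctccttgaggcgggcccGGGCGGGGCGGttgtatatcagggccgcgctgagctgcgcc
CDK4: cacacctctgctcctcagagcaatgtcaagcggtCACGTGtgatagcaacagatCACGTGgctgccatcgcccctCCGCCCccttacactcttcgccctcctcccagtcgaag
The printed CDKN1A stretch held 4 GC box matches, of which the last pair overlap, and no CCAAT or E-box match. CDKN1B held 1 GC box and 2 CCAAT matches and CDKN2D 1 of each. CDK4 held 1 GC box match and 2 E-box matches, 3 and 3 over its whole window of 250 bases. Among 35116 RefSeq promoter windows of that length, 42.6% held a GC box, 32% a CCAAT box and 6.34% an E-box. The E2F-type motif TTTNGCGC, held by 1.51% of windows, matched in none of the members' windows. These matches are letters only and were not linked to the levels.

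In sgEPCR cells the members answered UM171 differently from control cells for 4 genes. CDKN1A rose more in sgEPCR cells, whereas CDKN1B, CDKN2C and CDK4, higher at 24 h in control cells, were lower after UM171 in sgEPCR cells. The difference of the responses was called for 4 of the 9 tested members, 1 higher and 3 lower, beside 45.0% of all 15901 tested genes (21.9% higher, 23.1% lower). Without the 2 libraries of high mitochondrial share 7 were called, beside 69.2% of 16360 tested genes. With limma on log2(TPM + 1) 0 were called (2 at an unadjusted p under 0.05), beside 12.6% of all tested genes, and 5 with DESeq2, beside 48.2%.

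CDKN1A had 50.1, 190 and 175 TPM in sgEPCR DMSO and 760, 235 and 774 TPM in sgEPCR UM171. The 50.1 and 235 TPM belong to the libraries of high mitochondrial share, and every UM171 library was above every DMSO library. UM171 raised it by 1.87 on the log2 scale (SE 0.23, adjusted p = 5.6e-05), and by 1.89 (SE 0.06, adjusted p = 3.2e-12) without the 2 libraries. In the same fit the control cells changed by 0.45, and the difference was 1.42 (SE 0.32, adjusted p = 0.0041), or 1.45 (adjusted p = 5.5e-10) without the 2 libraries and 1.64 (adjusted p = 0.18) with limma. After UM171, sgEPCR cells had more CDKN1A than control cells, by a log2 value of 1.07 (adjusted p = 0.0032), and by 1.29 (adjusted p = 5.3e-11) without the 2 libraries. That call was lost with total count scaling (1.00, adjusted p = 0.066) and limma on log2(TPM + 1) (0.77, adjusted p = 0.35). It was not called with the replicate block (1.04, adjusted p = 0.12). That block compares the genotypes at replicate 1 only, here and below, so it cannot decide the call. In DMSO the value for the genotypes was -0.36 (adjusted p = 0.25), and -0.16 (adjusted p = 0.018) without the 2 libraries, where it was called.

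CDKN2D had 2.88, 14.1 and 14.3 TPM in sgEPCR DMSO and 46.5, 12.4 and 47.7 TPM in sgEPCR UM171. The 12.4 TPM of the library with 32.2% mitochondrial counts fell among the DMSO values, so the groups overlapped. The transcript was higher after UM171 by 1.56 (SE 0.28, adjusted p = 7.7e-04), or 1.54 (SE 0.09, adjusted p = 1.2e-09) without the 2 libraries, and 1.70 (adjusted p = 0.057) with limma on log2(TPM + 1). The difference from the control response, 0.90 (SE 0.39, adjusted p = 0.081), was not called with all libraries and was 0.90 (SE 0.12, adjusted p = 9.7e-06) without the 2. After UM171, CDKN2D was higher in sgEPCR than in control cells by 0.77 (SE 0.27, adjusted p = 0.041), or 1.01 (adjusted p = 2.7e-08) without the 2 libraries. That call was lost with total count scaling (0.71, adjusted p = 0.23) and limma (0.37, adjusted p = 0.69). It was also lost in 5 of the fits without 1 library. Of the INK4 TPM in sgEPCR UM171, 53.2 to 65.3% was CDKN2D, against 14 to 23.1% in sgEPCR DMSO.

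CDKN2C went the other way in the sgEPCR cells. It had 17.7, 47.1 and 47.6 TPM in sgEPCR DMSO and 24.8, 10.9 and 25.3 TPM in sgEPCR UM171. The low value of each group is again the library of high mitochondrial share, and with it the groups overlapped. The log2 change in normalised counts was -1.13 (SE 0.10, adjusted p = 4.8e-06), or -1.12 (adjusted p = 5.5e-11) without the 2 libraries and -0.81 (adjusted p = 0.18) with limma, against 0.49 in control cells. The difference was -1.62 (SE 0.14, adjusted p = 8.1e-06), the one member past the study's limits in this comparison (7.77% of all tested genes), and -1.60 (adjusted p = 3.2e-11) without the 2 libraries. With limma on log2(TPM + 1) it was -1.36 (adjusted p = 0.13). In DMSO, CDKN2C was higher in sgEPCR than in control cells by 0.70 (adjusted p = 3.3e-04), or 0.77 (adjusted p = 1.8e-09) without the 2 libraries. This call was lost with total count scaling (0.46, adjusted p = 0.20), limma (0.20, adjusted p = 0.76) and, at replicate 1 only, the replicate block (0.68, adjusted p = 0.072). After UM171 it was lower (-0.92, adjusted p = 3.9e-05), or -0.83 (adjusted p = 9.3e-10) without the 2 libraries and -1.17 (adjusted p = 0.072) with limma.

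CDKN1B had 20.7, 28.5 and 30.2 TPM in sgEPCR DMSO and 30.9, 16.7 and 28.1 TPM in sgEPCR UM171, groups that overlapped. On normalised counts it was lower after UM171 (-0.29, SE 0.09, adjusted p = 0.018), and had -0.17 (adjusted p = 0.016) without the 2 libraries. That call was lost with total count scaling (-0.09, adjusted p = 0.70), limma (-0.10, adjusted p = 0.84) and the replicate block (-0.29, adjusted p = 0.055). The difference from the control response was -0.91 (SE 0.13, adjusted p = 2.0e-04), -0.78 (adjusted p = 4.1e-07) without the 2 libraries and -0.71 (adjusted p = 0.21) with limma. In DMSO, sgEPCR cells had more CDKN1B than control cells (0.89, SE 0.09, adjusted p = 4.2e-05), also without the 2 libraries (0.79, adjusted p = 1.8e-08) but not with limma (0.52, adjusted p = 0.20). After UM171 the value for the genotypes was -0.03 (adjusted p = 0.84), or 0.01 (adjusted p = 0.92) without the 2 libraries.

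CDK4 had 30.5, 159 and 165 TPM in sgEPCR DMSO and 86.1, 18.6 and 87.2 TPM in sgEPCR UM171. The 30.5 and 18.6 TPM were those of high mitochondrial share, and with them the groups overlapped. On the log2 scale the change was -1.0 (SE 0.24, adjusted p = 0.0055) and the difference from the control response -1.18 (SE 0.34, adjusted p = 0.017). Without the 2 libraries these were -0.99 (adjusted p = 8.0e-11) and -1.15 (adjusted p = 3.0e-10), whereas with total count scaling neither was called (-0.84, adjusted p = 0.12, and -1.04, adjusted p = 0.18). Both were also lost with limma on log2(TPM + 1) (-0.82, adjusted p = 0.45, and -0.96, adjusted p = 0.57). The difference was lost with the replicate block too (-1.18, adjusted p = 0.072). After UM171, CDK4 was lower in sgEPCR than in control cells (-0.96, SE 0.24, adjusted p = 0.009), or -0.72 (adjusted p = 1.5e-09) without the 2 libraries. That call was lost with total count scaling (-1.02, adjusted p = 0.074) and limma (-1.44, adjusted p = 0.17). CDK6 had 29.2, 49.9 and 50 TPM in sgEPCR DMSO and 43.0, 38.9 and 45.2 TPM in sgEPCR UM171. It was higher in sgEPCR than in control cells in DMSO (1.01, SE 0.17, adjusted p = 0.0010), or 0.85 (adjusted p = 3.8e-09) without the 2 libraries. This call was lost with limma (0.53, adjusted p = 0.15) and, at replicate 1 only, the replicate block (1.06, adjusted p = 0.073). Its difference of responses was -0.57 (adjusted p = 0.074), or -0.65 (adjusted p = 1.6e-06) without the 2 libraries.

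**Figure D4:**
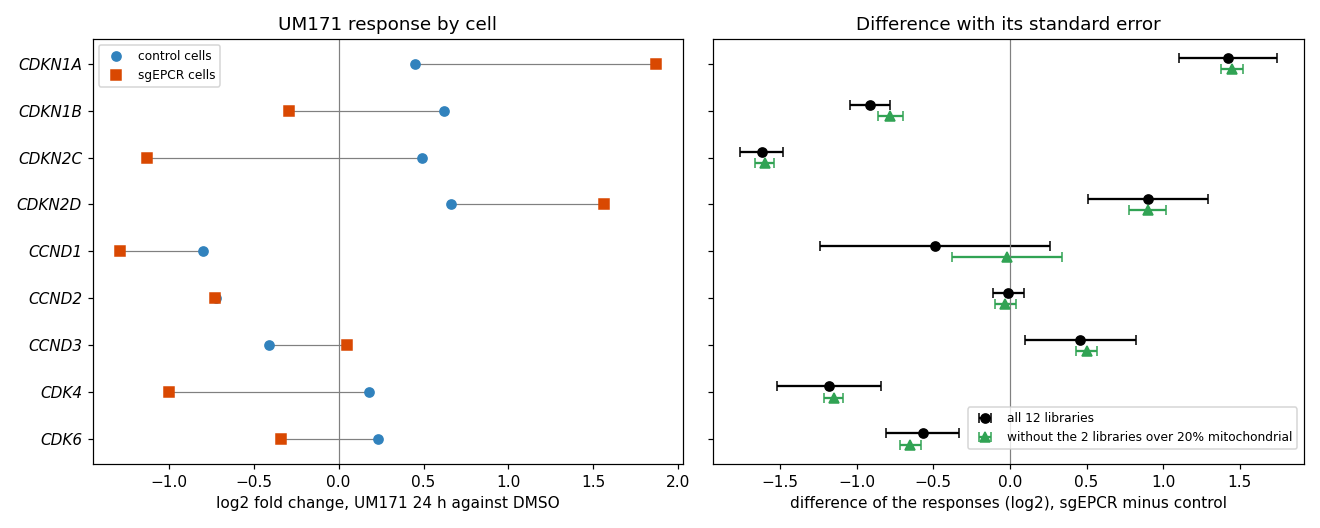
Left, log2 fold change of each tested member after 24 h of UM171 (x axis) in control cells (circles) and sgEPCR cells (squares); right, the difference of these responses, sgEPCR minus control (x axis), with its standard error, from all 12 libraries (circles) and without the 2 libraries over 20% mitochondrial counts (triangles). CDKN1A lies at 1.42 and CDKN2C at -1.62, and the estimates for CCND1 were -0.49 and -0.02.

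Among the D-cyclins, CCND2 was called lower after UM171 in both genotypes. It had 25.5, 55.6 and 56.7 TPM in sgEPCR DMSO and 38.3, 20.2 and 38.9 TPM in sgEPCR UM171, groups that overlapped. It changed by -0.73 on the log2 scale (SE 0.07, adjusted p = 7.1e-06) in sgEPCR cells and -0.72 in control cells, and the difference was -0.01 (SE 0.10, adjusted p = 0.92). These sgEPCR values were -0.76 (adjusted p = 1.5e-08) and -0.03 (adjusted p = 0.74) without the 2 libraries, and with limma on log2(TPM + 1) the change in sgEPCR cells was -0.46 and no longer called (adjusted p = 0.37). CCND3 had 22.7, 91.8 and 82.3 TPM in sgEPCR DMSO and 109, 28.7 and 107 TPM in sgEPCR UM171, with no call in the 4 sgEPCR comparisons. Without the 2 libraries its difference of responses was 0.50 (SE 0.07, adjusted p = 2.1e-05), against 0.46 (adjusted p = 0.32) with them. CCND1 had 4, 4 and 9 counts in sgEPCR DMSO and 1, 0 and 7 in sgEPCR UM171, below the 31 to 47 counts of control DMSO and the 13 to 38 counts of control UM171 24 h. It was lower in sgEPCR cells both in DMSO (log2 fold change -2.44, SE 0.48, adjusted p = 0.0028) and in UM171 (-2.93, SE 0.56, adjusted p = 0.0016), sizes that rest on few counts. They were -2.54 (adjusted p = 1.2e-04) and -2.56 (adjusted p = 3.2e-04) without the 2 libraries. The UM171 value reached -4.88 without sgEPCR UM171 replicate 3. The replicate block, which compares the genotypes at replicate 1 only, lost both calls (adjusted p = 0.12 and 0.059).

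UM171 against DMSO in sgEPCR cells gave 6 called members of 9, 2 higher and 4 lower (52.1% of all tested genes, 27.0% higher and 25.1% lower). In DMSO the genotypes differed for 4 members, 3 higher and 1 lower in sgEPCR (33.7%, with 17.4% higher and 16.3% lower), and in UM171 for 5, 2 higher and 3 lower (43.0%, with 20.8% higher and 22.2% lower). Without the 2 libraries these counts were 7, 8 and 8, beside 71.0, 60.3 and 68.3% of all tested genes. With total count scaling the median log2 fold change of all genes was 0.16 for the sgEPCR response, -0.25 and -0.13 for the genotypes in DMSO and in UM171, and 0.12 for the difference, against -0.01, 0.00, -0.02 and -0.02 with TMM. The higher share of all called genes then went from 51.8 to 69.1%, from 51.8 to 26.9%, from 48.4 to 42.1% and from 48.7 to 59.7%. The members called numbered 4, 3, 3 and 4, beside 39.9, 25.3, 31.4 and 33.1% of all tested genes. What part the high mitochondrial share has in these differences was not tested.

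Across the 7 groups the order of levels differed from gene to gene. CDKN2D was lowest in sgEPCR DMSO, 6 h and DMSO, whose ranges overlapped with their neighbours, and highest at 72 h, apart from 48 h and sgEPCR UM171. CDKN1A was lowest in sgEPCR DMSO, apart from DMSO, and highest in sgEPCR UM171, which overlapped with 72 h. CDK6 was lowest at 72 h and highest in the 2 sgEPCR groups, which overlapped, and CCND2 was lowest in sgEPCR UM171 and highest in DMSO, apart from its neighbour at 72 h. Among members with a mean of at least 5 TPM, CDKN2D and CDKN1A had the widest range of group means, 2.5 and 1.86 on the log2 scale of counts per M. The genes whose 7 group means followed CDKN2D most closely, of 10322 compared, were SNX14 (Pearson r = 0.987), MCFD2 (0.986) and DDIT4 (0.976). For CDKN1A they were ATOSA (0.990), SARAF (0.981) and CERS5 (0.979). These r are descriptions over 7 means of the same libraries and carry no p. DDIT4, an inhibitor of mTORC1 signaling, went from 7.98 TPM in DMSO to 345 TPM at 72 h.

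The other genes of the pathway were read as lists. Of 18 E2F target and S phase genes, which the retinoblastoma pathway controls, 17 were higher and 0 lower at 24 h, beside 34.9% higher and 34.8% lower of all tested genes (median log2 fold change 0.59, against -0.01 over all genes). At 72 h 4 were higher and 11 lower (38.8% and 36.8% of all, median -0.34), and from 24 to 72 h 1 rose and 17 fell (36.4% and 33.4% of all, median -1.0). CDT1, a licensing factor of replication origins, and POLA1, a subunit of DNA polymerase alpha, were higher at 72 h by 0.60 and 0.52. MCM4, part of the replicative helicase, and PCNA, the sliding clamp, were lower, with -1.14 and -1.07. In sgEPCR cells 18 of 18 were lower after UM171 (25.1% of all tested genes, median -0.89), also 18 without the 2 libraries (36.4% of all). With total count scaling 14 were lower (12.3%) and with limma on log2(TPM + 1) 1 (3.5%). In DMSO 16 were higher in sgEPCR than in control cells and 0 lower (17.4% and 16.3% of all). The 16 became 18 without the 2 libraries (30.3% of all), 8 with total count scaling (6.8%) and 2 with limma (1.21%). For the difference of responses 17 were lower and 0 higher (23.1% and 21.9% of all, median -1.60), with RRM2, a subunit of ribonucleotide reductase, at -2.22 (SE 0.09, adjusted p = 1.3e-07), or -2.30 without the 2 libraries and -1.99 (adjusted p = 0.065) with limma. The 17 became 18 without the 2 libraries (35.6% of all lower), 14 with total count scaling (13.4%) and 7 with limma (3.77%).

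Of 21 p53 targets other than CDKN1A, 2 were higher and 9 lower at 24 h, beside 34.9% and 34.8% of all tested genes, and 9 higher and 10 lower at 72 h, beside 38.8% and 36.8% (medians -0.09 and -0.14). The 72 h counts are near the shares of all genes, and with limma on log2(TPM + 1) they were 9 and 4 (37.2% and 29.5% of all). SESN2 and TP53INP1 were higher at 72 h by 1.67 and 1.34, and AEN and TIGAR had -1.16 and -0.76. In sgEPCR cells 12 were higher and 0 lower after UM171 (median 0.55), and for the difference of responses 13 were higher and 0 lower (median 0.64), among them BBC3, which encodes the pro-apoptotic protein PUMA, at 2.64 (SE 0.54, adjusted p = 0.0024), or 2.70 without the 2 libraries and 2.40 (adjusted p = 0.099) with limma. Without the 2 libraries the counts were 15 higher and 4 lower (34.5% and 36.4% of all tested genes), and 14 higher and 4 lower (33.6% and 35.6%). With limma on log2(TPM + 1) they were 6 and 0 (16.6% and 3.5%), and 5 and 0 (8.87% and 3.77%). With total count scaling 12 and 9 were higher (27.6% and 19.8%) and 0 lower (12.3% and 13.4%). In the main fit the shares of all tested genes called higher were 27.0% and 21.9%, and lower 25.1% and 23.1%.

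**Figure D5:**
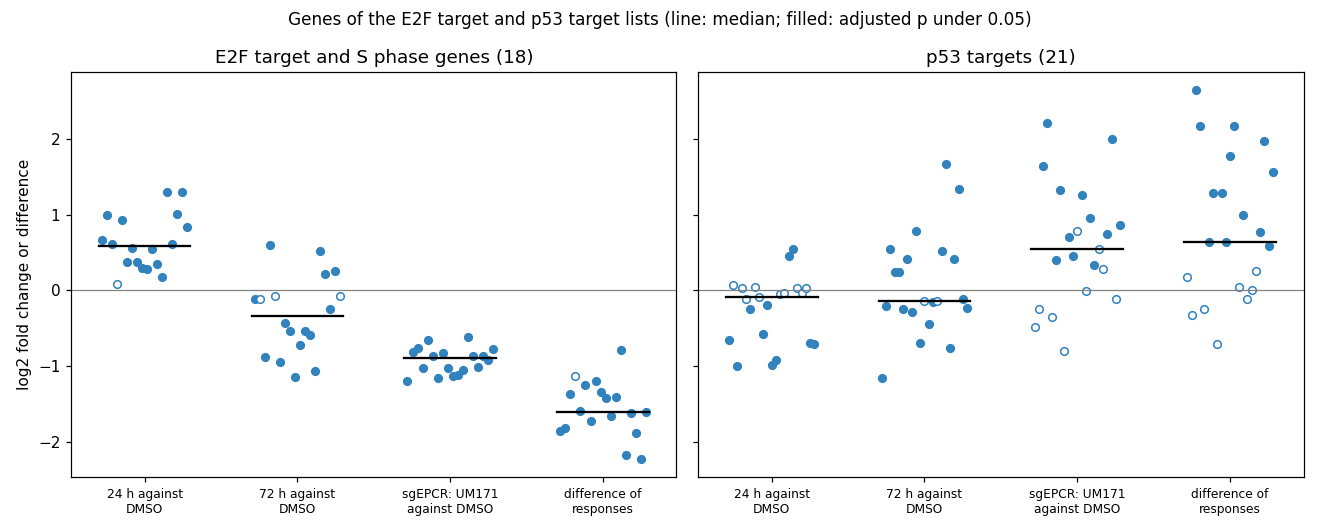
Log2 fold change, or difference of log2 fold changes, of each gene (y axis) of the E2F target and S phase list (left, 18 genes) and of the p53 target list (right, 21 genes) in 4 comparisons (x axis); lines are medians, filled points have an adjusted p under 0.05 and open points do not. The E2F target median went from 0.59 at 24 h to -0.34 at 72 h and was -0.89 in sgEPCR cells exposed to UM171.

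A list of 14 other G1 genes held cyclins, kinases and CDK activators, and also CDKN2A, CDKN2B, CDKN3, CDC37 and HSP90AB1. Of its 13 tested genes, 11 were higher and 1 lower at 24 h (34.9% and 34.8% of all tested genes). CDKN3, CDC37 and HSP90AB1 were among the 11. At 72 h 3 were higher and 6 lower (38.8% and 36.8%). CCNE1, the E1 cyclin that activates CDK2, went from 11.1 ± 0.984 TPM in DMSO to 18.8 ± 0.289 TPM at 24 h and 6.82 ± 0.506 TPM at 72 h (log2 fold change at 72 h -0.79, SE 0.09, adjusted p = 2.0e-07). CDC25A, the phosphatase that activates CDK2, was lower at 72 h (-1.47, adjusted p = 4.6e-14), while MNAT1 and CCNC had 0.58 and 0.41. CCNE1 also had the most negative difference of responses among the called genes of its list in the sgEPCR comparison, -1.78, or -1.77 without the 2 libraries and -1.50 (adjusted p = 0.062) with limma. Of the 18 pocket protein, E2F and DP genes, 12 were higher and 4 lower at 24 h, and 4 higher and 8 lower at 72 h, beside the same shares of all genes. E2F4 and RBL1, which act together as repressors, were lower at 72 h (-1.18 and -1.03), and TFDP2, a partner of E2F factors, was higher by 1.16, as was E2F5 by 0.44. For the difference of responses E2F5 had -2.38, or -2.54 without the 2 libraries, with 0 of the list higher and 10 lower (21.9% and 23.1% of all). The 10 became 16, with 1 higher, without the 2 libraries (35.6% lower and 33.6% higher of all tested genes). They became 6 with total count scaling (13.4% of all lower) and 2 with limma (3.77%).

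Of 16 genes for turnover of CDK inhibitors and G1 cyclins, 2 were higher and 11 lower at 72 h, beside 38.8% and 36.8% of all tested genes. The 11 became 9 with total count scaling (32.5% of all lower) and 7 with limma (29.5%). SKP2, the ubiquitin ligase subunit that marks p27KIP1 for degradation, had 32.5 ± 1.57 TPM in DMSO and 21.9 ± 2.47 TPM at 72 h (log2 fold change -0.59, SE 0.05, adjusted p = 1.2e-08). FBXO31, which targets cyclin D1, was also lower (-0.84), and the 2 higher genes were USP28 and RNF123, at 0.64 and 0.62. SKP2 was -1.19 in the difference of responses (adjusted p = 6.2e-05), or -1.28 without the 2 libraries. GSK3B, a kinase of D-cyclins, had 0.67 (adjusted p = 0.016), also 0.67 without the 2 libraries, and 0.46 (adjusted p = 0.30) with limma. Of 20 regulators of transcription of the inhibitors and cyclins, 11 were higher and 6 lower at 72 h, beside the same 38.8% and 36.8%. EGR1, an immediate early factor, went from 1.94 ± 0.107 TPM in DMSO to 26.1 ± 0.515 TPM at 72 h (3.68, adjusted p = 5.7e-13), and MXI1, a MAX partner, from 18.5 ± 0.861 to 86.0 ± 6.98 TPM (1.99). CEBPA and SMAD7 were lower, with -0.97 and -0.86. In the difference of responses KLF6, a zinc finger factor reported to activate CDKN1A, had 2.78 (adjusted p = 1.7e-07) and MXI1 -0.95 (adjusted p = 5.3e-04), or 2.80 and -0.94 without the 2 libraries, and MXI1 was not called with limma (-0.70, adjusted p = 0.16).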

How the data were processed

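RNA of 21 OCI-AML5 libraries was analysed. The authors deposited, for each library, expected counts per gene from RSEM, not normalized, with shared reads apportioned among genes, and TPM, which the authors' RSEM run scaled for effective transcript length. The submitters' processing notes name CASAVA 1.8.2, Trimmomatic 0.35, STAR 2.5.1b, RSEM 1.2.28 and GRCh38. The methods describe other software for the published statistics. Totals were 24.3 M to 51.5 M counts. Values of the 45 pseudoautosomal entries of Y were added to those of X, and 57392 of the 58174 identifiers had a symbol.

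Expected counts were rounded and tested with edgeR 4.0.16 in R 4.3.3 (filterByExpr, TMM, glmQLFit, glmQLFTest, Benjamini-Hochberg adjustment over all tested genes, called at an adjusted p under 0.05). The time course fit held 15 libraries and 16575 genes, the genotype fit 12 libraries and 15901 genes. Each standard error (SE) was obtained from the fold change and its F statistic. Alternatives included limma 3.58.1 on TPM (pseudocounts 1 and 0.1, log2 scale), DESeq2 1.42.0, total count scaling, other filters (none, or at least 10 counts in every library), all 21 libraries in 1 fit, the replicate number as a block, the limits of the study, leaving out each library, and leaving out the 2 libraries over 20% mitochondrial counts, which for single genes was chosen after seeing the data, as were the alternatives for named list genes. In the genotype fit the block was set within each genotype, so that it compared the genotypes at the level of replicate 1 only. Replicate pairs differed by more than sampling noise (chi-square per gene 1.62 to 865). The lowest value, 1.62, was that of the 2 sgEPCR UM171 libraries left when the one of high mitochondrial share was taken out, and the 2 left in sgEPCR DMSO had 5.3. The pipeline was tested on simulated data. Members and lists were chosen with earlier results of these data known. Named list genes are, in each direction, the 2 that changed most at 72 h and the 1 whose responses differed most, among called genes of at least 5 TPM. Those at 72 h also had no overlap between the 72 h and DMSO libraries, a limit not applied to the difference of responses.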

Additional observations from a re-analysis of the deposited data

Results flagged for a closer look

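The response to UM171 differed between sgEPCR and control cells, by the edgeR test of the difference itself, for 4 of the 9 tested members. Of all 15901 tested genes 45.0% were called in that comparison, so a share of this size is not particular to the members. For CDKN1A the difference (sgEPCR minus control, log2) was 1.42, the response being 1.87 in sgEPCR and 0.45 in control cells. For CDKN1B it was -0.91, from -0.29 and 0.62, and for CDKN2C it was -1.62, from -1.13 and 0.49. For CDK4 it was -1.18, from -1.0 and 0.18. In sgEPCR cells the sign of the response was opposite to that of control cells for CDKN1B, CDKN2C and CDK4. With limma on log2(TPM + 1) none of the 4 differences was called, nor were the sgEPCR responses of CDKN1B, CDKN2C and CDK4. The sgEPCR response of CDKN1A was still called with limma. With total count scaling the sgEPCR responses of CDKN1B (-0.09, adjusted p = 0.70) and CDK4 (-0.84, adjusted p = 0.12) were not called. The CDK4 difference was not called with total count scaling (-1.04, adjusted p = 0.18) or the replicate block (-1.18, adjusted p = 0.072).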

How the results depend on the processing

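Of 680 single gene values under alternatives, 545 stayed on the same side of the threshold, 78 lost and 27 gained a call, and 30 changed sign. Of 540 values without 1 library, 496 stayed, 19 lost, 12 gained and 13 changed sign. The members called by comparison, in the order 6, 24, 48 and 72 h against DMSO, 72 against 24 h, sgEPCR UM171 against sgEPCR DMSO, sgEPCR against control cells in DMSO and in UM171, and the difference of responses, were 7, 9, 6, 7, 7, 6, 4, 5 and 4. In the same order 62.1, 69.7, 72.1, 75.6, 69.9, 52.1, 33.7, 43.0 and 45.0% of all tested genes were called. Under the limits of the study the members called were 0, 0, 1, 1, 1, 2, 0, 0 and 1, limits that are stricter in both p and fold. The genes past these limits were 1165, 2276, 2719, 3448 and 1978 of 16575, then 1642, 452, 709 and 1236 of 15901. With limma on either pseudocount the members called were 4 at 6 h and 1, 1, 1 and 0 in the 4 sgEPCR comparisons (at an unadjusted p under 0.05, 5, 2, 2, 3 and 2 with log2(TPM + 1), and with log2(TPM + 0.1) 2 in place of the 3). With log2(TPM + 1) the shares of all tested genes called were 46.2, 20.1, 9.31, 12.5 and 12.6%. All 21 libraries in 1 fit gave 4 at 6 h and 3 at 48 h, and the share of all tested genes called in that fit is not given here. That fit also lost CCND3 (adjusted p = 0.11), CDK4 (0.48) and CDK6 (0.15) at 24 h. It lost CCND3 at 72 h (0.11) and CDKN1A between 24 and 72 h (0.055). Total count scaling gave 3 for the genotypes in UM171, beside 31.4% of all tested genes. Without the 2 libraries over 20% mitochondrial counts the last 3 comparisons gave 8, 8 and 7, beside 60.3, 68.3 and 69.2% of all tested genes. The cause of these changes was not tested.

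Without 1 library the counts lay between 6 and 7, 8 and 9, 5 and 6, 7 and 7, 7 and 8, 6 and 7, 4 and 4, 4 and 6, and 4 and 7. The 7 came without sgEPCR UM171 replicate 2. Replicate numbers showed no pairing of samples in the time course, where deviations of same-numbered libraries correlated between -0.079 and 0.075. In sgEPCR cells the values lay between -0.563 and 0.413. There the libraries of high mitochondrial share are replicate 1 of DMSO and replicate 2 of UM171, so these values cannot show whether the numbers pair the libraries. With a replicate block, 1 member was called for the genotypes in DMSO and 1 in UM171. Of all tested genes 6.94 and 12.2% were then called, against 33.7 and 43.0% without the block, so the loss is not particular to the members.

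Values that changed sign at 6 h were those of CDKN1A (0.14 with total counts, 0.12 with limma, 0.0039 with at least 10 counts), CCND1 (0.10 with total counts) and CDK6 (0.0007 with total counts, 0.07 with limma), the 3 CDK6 values being the reversals of a called gene. CCND1 at 48 h had -0.17 and -0.40 with limma, and CDKN2C at 72 h 0.07 with total counts, 0.13 with limma and 0.06 with at least 10 counts. In the sgEPCR comparisons, none of them called, CDK6 had 0.02 with limma in the UM171 response. In DMSO, CDKN2D had 0.11 without the 2 libraries and CDK4 -0.49 and -0.50 with limma. In UM171, CDKN1B had 0.0003 with at least 10 counts, 0.12 with the replicate block and 0.0065 without the 2 libraries, and CCND3 -0.21 with limma. In the difference CCND1 had 0.12 with limma, and CCND2 0.0062 with DESeq2, 0.12 with total counts, 0.21 with limma and 0.05 with at least 10 counts. Without 1 library, CCND1 at 6 h ranged from -0.35 to 0.04, CDKN2C at 72 h from -0.04 to 0.03, CCND3 in the sgEPCR response from -0.18 to 0.30, CDKN2D in DMSO from -0.28 to 0.12, CDKN1B and CCND3 in UM171 from -0.07 to 0.0040 and from -0.07 to 0.33, and CCND2 in the difference from -0.06 to 0.0077. The low counts of CDKN1C and CCND1 limited what could be seen of both.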
